A study of Homo sapiens with 10 samples.

Results

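The comparison described here set MiaPaCa-2 cells exposed for 24 h to a stellate cell supernatant against the same line exposed for 5, 6 and 7 h, and asked what had resolved, persisted or newly appeared by 24 h. The arrays were taken by their labelled hour: 1 array at 24 h and 3 arrays at 5, 6 and 7 h, which is 4 of the 10 arrays of the series. MiaPaCa-2 is a human pancreatic cancer cell line. All 8 treated arrays came from cells given conditioned medium of pancreatic stellate cells, the matrix-producing fibroblast-like cells of the pancreas, which had themselves first been primed with pooled supernatant of 8 tumour cell lines. The 2 control arrays, labelled 0 h and 24 h, received no such supernatant and serve here as positions against which the treated arrays are placed. The medium was added the stated number of hours before harvest. Each time point is 1 array of 1 cell line, and the labels do not say whether separate cultures were used. The p-values below therefore measure only the spread between these arrays. The labels do not give the hours in culture of the treated arrays, so effects of exposure and of time in culture cannot be told apart here.

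Conditioned medium carries cytokines and growth factors that act on tumour cells through receptors at the cell surface. Inflammatory ligands activate NF-kB, a transcription factor family that switches on chemokine genes together with genes for its own inhibitors, so that the response is limited by feedback. Growth signals and the state of the culture act more slowly on the cell cycle, whose mitotic genes are transcribed together late in the cycle, and on sterol synthesis, which cells turn up through the SREBP factors when membrane cholesterol is low.

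The values are log2 probe-set signals of an Affymetrix expression array, normalised across arrays by the depositors. The arrays did not order by hour alone. The 24 h treated array lay nearest to the 0 h control, with 93 of 11865 genes 2-fold or more apart, while 387 genes were that far from the 24 h control. The 24 h control in turn lay nearest to the 1 h treated array, with 63 genes 2-fold apart, and the controls differed from each other 2-fold in 276 genes. Against the 5, 6 and 7 h arrays the 24 h array differed 2-fold in 223, 197 and 155 genes, whereas these 3 arrays differed among themselves in only 1 to 21. The position of each result relative to both controls is therefore given below. The labelled hours were used as given. Whether the hours of the controls are as labelled could not be checked from the arrays, and each statement about the 0 h or 24 h control holds only as far as those labels do. RNA quality measures of the 24 h array lay near those of the 5–7 h arrays: the 3′ minus 5′ difference of the GAPDH control probe sets was 0.01 at 24 h against -0.01 to 0.05 at 5–7 h, and that of ACTB was 0.33 against 0.36 to 0.50. The 2 sets of bacterial spike-in probe sets averaged 9.86 (Bs) and 10.19 (Ec) at 24 h, against 9.99 to 10.25 (Bs) and 10.17 to 10.41 (Ec) at 5–7 h.

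**Figure D1:**
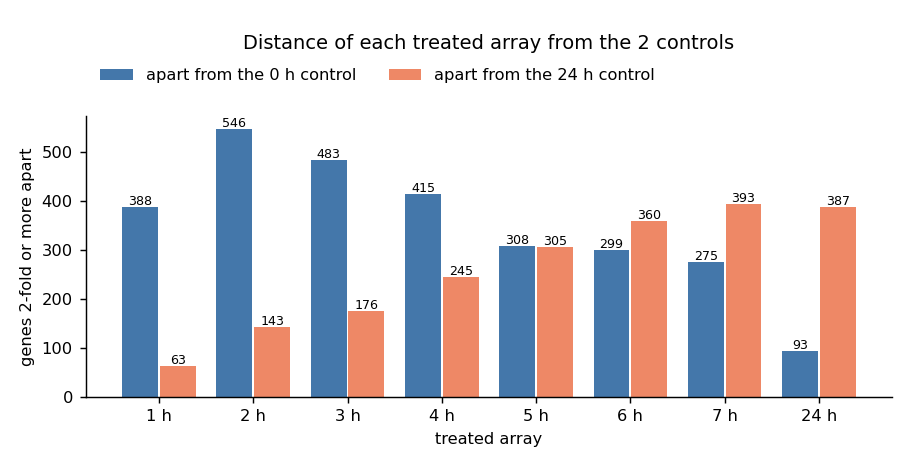
Number of genes 2-fold or more apart, of 11865 (vertical axis), between each treated array (horizontal axis) and each control, with 1 bar per control. For the 24 h treated array the count is 93 against the 0 h control and 387 against the 24 h control, and the 1 h treated array is 63 genes from the 24 h control.

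Of 10 MiaPaCa-2 and epithelial tumour markers on the array, 7 were above the filter on low signal. These 7 differed by -0.12 to 0.14 (log2) between 24 h and the mean of 5–7 h. VIM, the mesenchymal filament vimentin, was at 14.57 at 24 h against 14.42 to 14.47 at 5–7 h. KRT18, an epithelial keratin, was at 14.22 against 14.20 to 14.21. The other 3, the adhesion genes EPCAM, CDH1 and CDH2, were below the filter. So were 8 of 16 stellate cell markers, among them LUM, POSTN, PDGFRA, PDGFRB and FAP. COL1A2 and RGS5, also on the stellate list, were high in every array, controls included. The summed signal of the stellate list was 13.14 on the log2 scale at 24 h, 12.90 to 13.13 at 5–7 h and 13.57 and 13.61 in the controls. In bulk RNA, fewer cells of a type and less RNA per cell cannot be told apart.

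By 24 h most genes that lay at least 1 log2 unit beyond both controls at 5–7 h lay nearer to them. This placement depended on the control used, as given below. Mitotic genes and sterol synthesis genes were higher, and inflammatory, metallothionein and ribosome biogenesis genes were lower. In limma, 1455 of 11865 genes (12.3%) passed an adjusted p of 0.05 for the difference of the 24 h array from the mean of the 3 arrays, 631 of them higher (5.32%) and 824 lower (6.94%). These shares of all genes are the ones to set beside each count of list members below. After cyclic loess scaling of the arrays the split was 830 higher and 791 lower. All differences below are log2, 24 h minus the mean of 5–7 h, with the standard error of that fit, and adjusted p-values are Benjamini-Hochberg values over all 11865 genes. The lone 24 h array was assumed to vary like the other 3. Leaving out the 6 h array left only LAMP3 and MT1M past the threshold, each with an adjusted p of 0.00761, and sharing the spread of all 10 arrays left 43 genes. The sizes did not rest on any 1 of the 3 earlier arrays: 184 genes (1.55%) differed 2-fold or more, 116 higher (0.978%) and 68 lower (0.573%), and leaving out each array in turn gave 173 to 204.

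The 3 arrays were close to each other. Their SD had a median of 0.0838 over genes and a 95th percentile of 0.24 (SD, n = 3). Because the spread was this small, the 24 h value lay outside the range of the 3 arrays in 8528 genes (71.9%), so lying outside that range is not in itself a mark of size. Of the 184 genes 2-fold apart, all lay outside the range, 158 differed by over 5 SD of the 3 arrays and 173 passed the limma threshold.

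**Figure D2:**
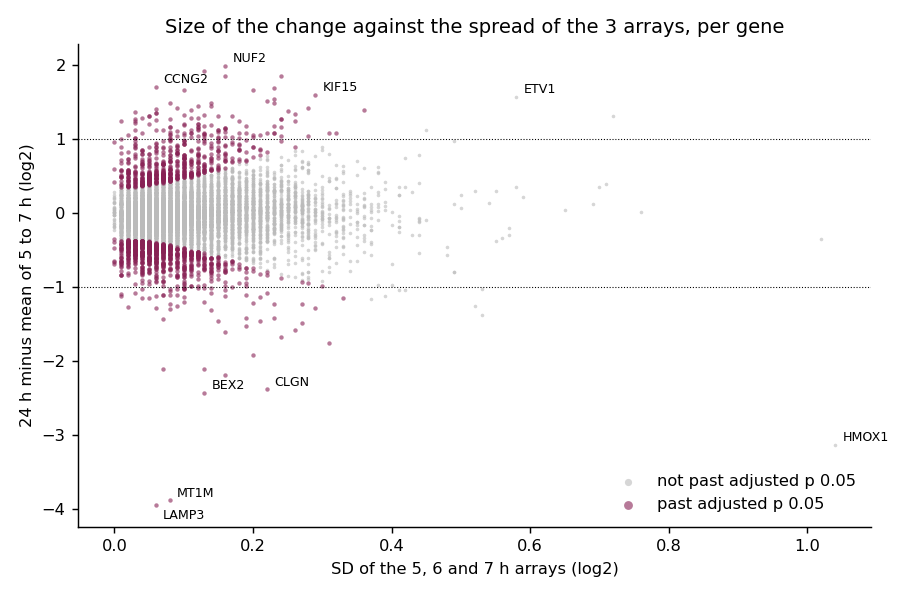
Log2 difference, 24 h minus the mean of 5, 6 and 7 h (vertical axis), against the SD of those 3 arrays (horizontal axis), 1 point per gene of 11865. The 184 genes 2-fold or more apart all lie outside the range of the 3 arrays, and 158 of them differ by over 5 SD.

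Many of these genes were ones in which the controls themselves were apart. Of the 116 genes 2-fold higher at 24 h, 40 had controls 1 log2 unit or more apart, 47 had them 0.5 to 1 apart and 29 under 0.5 apart. Of the 68 lower, the numbers were 21, 14 and 33. The 24 h array was nearer to the 0 h control than to the 24 h control in 104 of the 116 (89.7%) and in 47 of the 68 (69.1%), against 58.5% of all genes. The movement had often begun inside the earlier window: the 7 h array lay on the same side of the 5 h array as the 24 h difference in 78 of the 116 genes (67.2%) and in 54 of the 68 (79.4%), against 51.2% of all genes.

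To place the 24 h array against both controls, a gene was counted as responding at 5–7 h where all 3 arrays lay beyond both controls on 1 side and their mean was at least 1 log2 unit beyond the nearer control. There were 105 such genes (0.885% of those tested), 65 high and 40 low. At 24 h, 58 of the 105 had resolved (under 0.5 beyond), 30 had partly resolved (0.5 to 1 beyond) and 17 persisted (1 or more beyond). The median distance beyond the nearer control was 0.45 at 24 h, against 1.26 at 5–7 h. Another 11 genes (0.0927%) were new at 24 h, at least 1 beyond both controls with each of the 3 earlier arrays under 0.5 beyond. These counts are descriptions, since the 5–7 h arrays and the shared controls set the classes, and they move with the margins. With margins of 0.5 and 0.25 there were 111 persisted, 474 resolved and 69 new genes. The genes were chosen for lying far out at 5–7 h, a choice that itself favours a move back. Against the 0 h control alone 52 persisted, 86 partly resolved and 130 resolved. Against the 24 h control alone 137 persisted, 112 partly resolved and 81 resolved, so that persisted genes outnumbered resolved ones.

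Genes picked on the 3 and 4 h arrays moved in the same direction, but they are not an independent check. The 4 h array differed 2-fold from the 5 h array in only 4 genes, and the same 2 controls set both choices. Genes that were 1 log2 unit beyond both controls at 3 and 4 h, hours not used in the comparison, numbered 74 on the high side and 27 on the low side. At 5–7 h 45 and 21 of them were still at least 1 unit beyond, so the choice itself favoured a move back towards the controls. From 5–7 h to 24 h, 43 of the 74 high genes fell past the threshold and none rose, with a median difference of -0.69, and 72 of the 74 lay below zero. Of the 27 low genes 21 rose and none fell, with a median of 0.73. At 24 h, 9 of the 74 were still at least 1 unit beyond both controls and 48 were under 0.5 beyond them. For the 27 low genes these counts were 5 and 14.

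**Figure D3:**
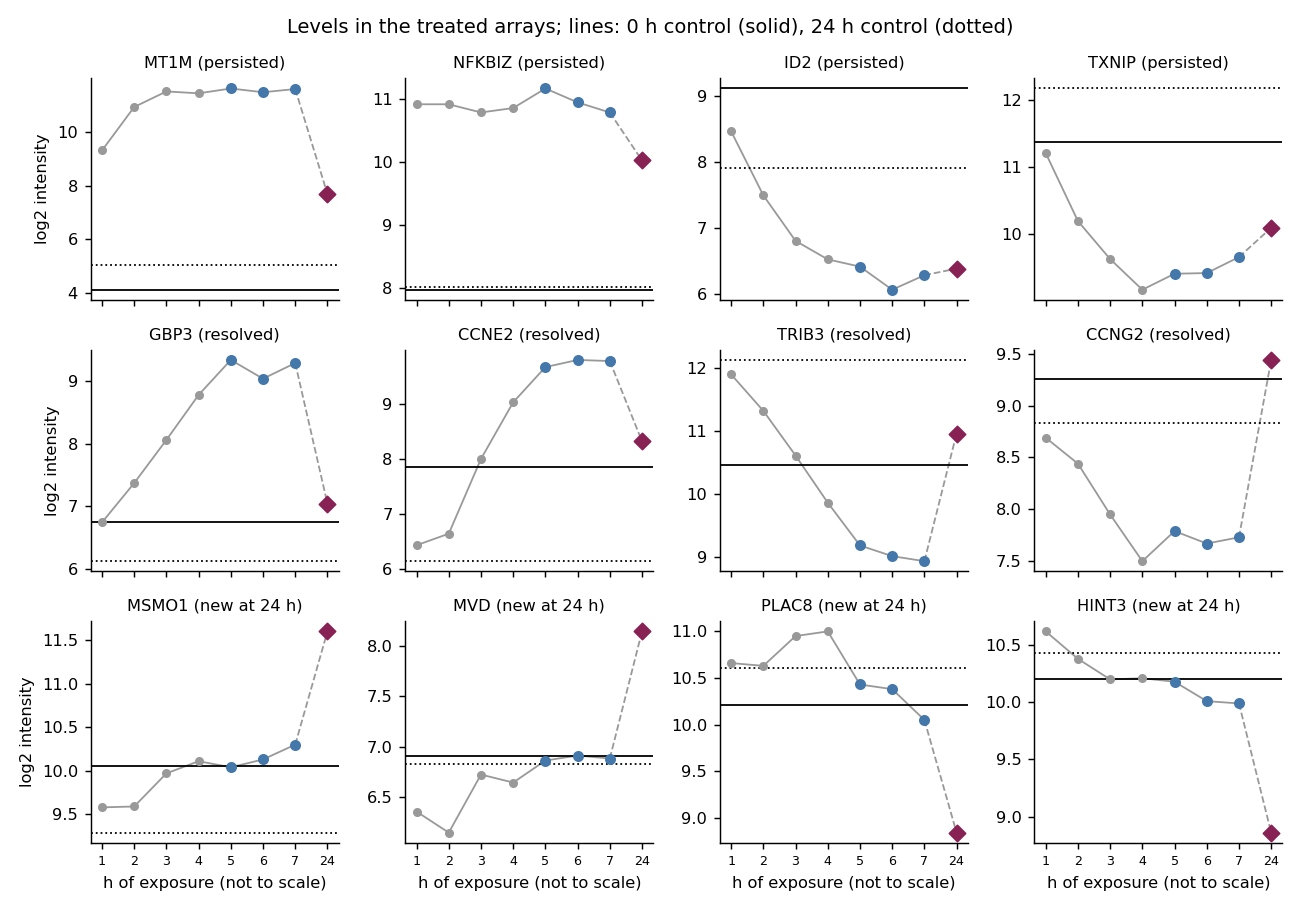
Log2 signal (vertical axes) of single genes that persisted, resolved, or were new at 24 h, by hour of exposure (horizontal axis, not to scale between 7 and 24 h), with the 0 h control as a solid and the 24 h control as a dotted horizontal line. MT1M and NFKBIZ stay above both controls at 24 h, GBP3 lies 0.29 above the 0 h control and TRIB3 between the controls, and MSMO1 and MVD are 1.56 and 1.24 above the nearer control at 24 h.

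Among NF-kB feedback inhibitors the response fell but did not end. NFKBIZ, an atypical IkB protein that promotes a subset of secondary NF-kB targets, was at 10.02 at 24 h, against 11.16, 10.94 and 10.78 at 5, 6 and 7 h, with the controls at 7.97 and 8.01. The 24 h array was thus below all 3 earlier arrays and still 2.01 above the nearer control. The difference was -0.94 ± 0.16 (adjusted p = 0.0257), and both probe sets of the gene had this sign. TNFAIP3, the A20 ubiquitin-editing inhibitor, fell by 0.66 (adjusted p = 0.0445) and NFKBIA, which encodes IkB-alpha, fell by 0.51 (adjusted p = 0.0311). The other probe set of NFKBIA differed by only -0.03. Of the 10 list members tested, 3 fell (30%) and none rose, and the list median was -0.37 against -0.02 over all genes. Without the 6 h array none of the 10 passed and 6 were lower at an unadjusted p of 0.05, and with the spread of all 10 arrays NFKBIZ passed (adjusted p = 0.0455).

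NF-kB effectors moved the same way. TNFAIP2, a TNF-induced gene, was at 10.35 at 24 h against 11.73, 11.65 and 11.57 at 5, 6 and 7 h, and the controls were at 9.25 and 9.32. It fell by 1.30 ± 0.10 (adjusted p = 0.00946) and remained 1.03 above the nearer control. The other probe set of TNFAIP2 differed by -0.41. MAP3K8, the TPL2 kinase that links NF-kB signalling to ERK, was at 5.28 at 24 h against 6.89, 6.36 and 6.42, with controls at 3.80 and 3.25. Its difference was -1.28 ± 0.22 (adjusted p = 0.0274), although its other probe set differed by only -0.08. IRF1, an interferon-response transcription factor, lay at 8.18 at 24 h and 9.30, 9.17 and 9.09 at 5–7 h, which put it 0.08 below the nearer control of 8.26 and 8.30 (difference -1.01 ± 0.11, adjusted p = 0.0131). In all, 7 of 18 effector genes fell (38.9%) and none rose (1 was higher at an unadjusted p of 0.05), with a median of -0.42. The other 4 were CD83, SDC4, RELB and RELA.

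Chemokine and cytokine genes divided into some still raised at 24 h and some back near the 0 h control. CXCL3, a ligand of CXCR2 that attracts neutrophils, was at 9.25 at 24 h against 11.03, 10.80 and 10.72 at 5, 6 and 7 h, with controls at 7.65 and 8.59. It fell by 1.60 ± 0.14 (adjusted p = 0.0107) and lay 0.67 above the nearer control. CXCL6, a CXC chemokine of the same receptor group, was at 6.38 at 24 h against 8.31, 7.85 and 8.00, and the controls were at 5.90 and 4.77. It fell by 1.67 ± 0.19 (adjusted p = 0.0136) to 0.48 above the 0 h control. CSF3, which encodes the granulocyte growth factor G-CSF, fell by 0.78 ± 0.09 (adjusted p = 0.0153) and was 0.68 above the nearer control. CXCL1, CXCL2 and CXCL5 fell too, so that 6 of 13 tested members fell (46.2%) and none rose. The list median relative to the 0 h control was 1.19, 1.17 and 1.17 at 5, 6 and 7 h, 0.74 at 24 h and 0.35 in the 24 h control. At 24 h 9 of the 13 were still above both controls, against 3370 of all 11865 genes.

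The interferon-induced GTPases were among the largest resolved responses. GBP3, a guanylate-binding protein, was at 7.04 at 24 h, against 9.34, 9.04 and 9.29 at 5, 6 and 7 h, with controls at 6.75 and 6.12. The 3 earlier arrays stood together more than 2 units above the controls, and the 24 h array was 0.29 above the 0 h control. The difference was -2.18 ± 0.14, a 4.53-fold fall (adjusted p = 0.00843). GBP1, its paralog, fell by 1.53 ± 0.16 (adjusted p = 0.0122). All 4 of its probe sets were of the same sign, but they ranged between -1.53 and -0.22. SOCS3, the feedback inhibitor of JAK-STAT signalling, was at 7.43 at 24 h against 8.76, 8.47 and 8.32, below both controls at 7.98 and 7.73 (difference -1.08 ± 0.18, adjusted p = 0.0245). The 4 probe sets of SOCS3 ranged between -1.08 and -0.09. IL6R, the interleukin-6 receptor chain, fell by 0.99 ± 0.12 (adjusted p = 0.0147) and stayed 0.53 above the nearer control. Its 3 probe sets ranged between -0.99 and -0.26. Of 20 genes of this list 7 fell (35%) and 1, the kinase gene PIM1, rose (5%), with a median of -0.29.

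The resolved gene furthest beyond the controls at 5–7 h was NPL, which encodes N-acetylneuraminate lyase. It was at 6.40 at 24 h against 8.66, 8.47 and 8.41, with controls at 5.73 and 5.91, and it fell by 2.11 ± 0.12 (adjusted p = 0.00843). Only 3 of its 4 probe sets had this sign. On the low side, ANKEF1 and CDC42EP3, an effector of the GTPase CDC42, rose by 1.40 ± 0.11 (adjusted p = 0.0101) and 1.02 ± 0.13 (adjusted p = 0.0171). They ended 0.01 and 0.35 below the nearer control.

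Metallothioneins are small cysteine-rich proteins that bind zinc and copper, and their genes are induced through the zinc sensor MTF1 at metal response elements. The promoter of MT1X from RefSeq (GRCh38.p14, chr16:56682220-56682469, plus strand, 250 bases up to the start) is shown because the family's promoters carry these elements, which are in capitals here. MT1M, the member with the largest difference, had no entry in the promoter table.
MT1X: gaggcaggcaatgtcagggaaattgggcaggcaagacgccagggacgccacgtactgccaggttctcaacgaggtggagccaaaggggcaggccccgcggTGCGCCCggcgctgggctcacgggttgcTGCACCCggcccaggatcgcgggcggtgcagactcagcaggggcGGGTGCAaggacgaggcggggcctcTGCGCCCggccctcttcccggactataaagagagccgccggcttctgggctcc
The search, on both strands, was for TGCACNC or TGCGCNC. It found 4 matches here, at 150, 122, 78 and 53 bases before the start. Such a match was present in 5 of the 7 list members that have a promoter in the table (71.4%) and in 24.8% of all 35116 promoters of this length. A match is a description of the sequence and not a bound site.

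MT1M had the second largest fall of all genes tested and was, of the persisted genes, the furthest beyond the nearer control at 24 h. It was at 7.69 at 24 h, against 11.62, 11.48 and 11.60 at 5, 6 and 7 h, and 4.12 and 5.06 in the controls. The 3 earlier arrays had an SD of 0.08, and the 24 h array lay between them and the controls, 2.62 above the nearer one. The difference was -3.88 ± 0.10, a 14.7-fold fall (adjusted p = 0.00051). MT1F was at 12.61 at 24 h against 13.86, 13.88 and 13.90, and fell by 1.27 ± 0.08 (adjusted p = 0.00843) to 0.22 above the nearer control. MT1G fell by 1.15 ± 0.09 (adjusted p = 0.00919), although its other probe set differed by only -0.09. MT1E, MT1X, MT1H and MT2A fell as well. These genes are near-identical copies, and probe sets of one may bind transcripts of another, so the members are not independent measurements. Of 12 list members 7 fell (58.3%) and 1 rose (8.33%), the zinc importer SLC39A10 by 0.66, and the list median was -0.58. With the spread of all 10 arrays none of the 12 passed, while 7 were lower at an unadjusted p of 0.05.

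The oxidative stress response was also lower. HMOX1, heme oxygenase 1, was at 7.81 at 24 h against 11.85, 11.17 and 9.80 at 5, 6 and 7 h, with controls at 7.95 and 9.18. The 3 earlier arrays were themselves in steep decline, with an SD of 1.04, and the 24 h array was below both controls. The difference of -3.13 ± 0.74 was the third largest in size among the negative ones and missed the threshold (adjusted p = 0.0543). AKR1C1, an aldo-keto reductase under NRF2 control, fell by 1.11 ± 0.10 (adjusted p = 0.0119) to 0.79 below the nearer control, with 4 of 5 probe sets of that sign. PIR, NQO1, BLVRB and TXN fell by 0.38 to 0.68, and 5 of 19 NRF2 targets fell in all (26.3%), with a median of -0.40.

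Heat shock genes were lower as a group. All 14 tested members lay below zero and 5 passed (35.7%), with a median of -0.48. DNAJA1, a co-chaperone of HSP70, was at 11.71 at 24 h against 12.94, 12.84 and 12.74, and fell by 1.13 ± 0.11 (adjusted p = 0.0122). HSPH1, a nucleotide exchange factor of HSP70, fell by 0.77 ± 0.11 (adjusted p = 0.0187). HSPA6, the strictly inducible HSP70 gene, was at 5.46 at 24 h and 6.68, 6.35 and 5.72 at 5, 6 and 7 h, which did not pass (difference -0.79 ± 0.35, adjusted p = 0.203). It was within 0.04 of both controls at 24 h. In contrast, chaperones of the endoplasmic reticulum showed little, with 1 riser (HERPUD1), 1 faller (HYOU1) and a median of -0.08 over 21 genes.

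Genes of G2 and mitosis formed the largest coordinated rise. Of 63 tested members 57 rose (90.5%) and none fell, all 63 lay above zero, and 35 were 2-fold or more higher. The list median was 1.03, against -0.02 for all genes. In 62 of the 63 (98.4%) the 24 h array was the highest of the 8 treated arrays, which was true of 18.7% of all genes. Relative to the 0 h control the list median was -0.92, -0.74 and -0.69 at 5, 6 and 7 h, 0.26 at 24 h and -0.99 in the 24 h control. At 24 h 59 members (93.7%) were within 0.5 of the 0 h control, near the 94.6% of all genes, compared with 12 (19.0%) at 5–7 h, far below the 85.4% of all genes. In 62 of the 63 the 24 h array was above both controls and in 1, CDC25B, below both. Of all 11865 genes 3370 were above both and 4142 below both. None of the 63 was in the persisted, resolved or new classes. With the spread of the 8 treated arrays 52 passed. Without the 6 h array none passed, while 61 were higher at an unadjusted p of 0.05 and the median was 1.04. With the spread of all 10 arrays none passed and 53 were higher at that unadjusted p.

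The largest rises were in genes of several mitotic roles. NUF2, a subunit of the NDC80 kinetochore complex that binds microtubules, was at 10.42 at 24 h, against 8.24, 8.50 and 8.55 at 5, 6 and 7 h, with controls at 10.30 and 8.77. It was the largest rise of all genes past the threshold, at 1.99 ± 0.14 or 3.97-fold (adjusted p = 0.00919). The 24 h array was above both controls and the 3 earlier arrays were below both. CDC25C, the phosphatase that activates CDK1 at mitotic entry, rose by 1.86 ± 0.14 (adjusted p = 0.00919), and its 3 probe sets ranged between 0.34 and 2.00. DLGAP5, a spindle protein that stabilises microtubules at kinetochores, was at 11.19 at 24 h against 9.25, 9.55 and 9.70, and rose by 1.69 ± 0.18 (adjusted p = 0.013). Its controls were at 10.65 and 8.97, and the 3 earlier arrays lay between them.

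Motor and kinetochore genes followed. KIF15, a spindle kinesin, rose by 1.60 ± 0.22 (adjusted p = 0.0184) and KIF20A, a kinesin of cytokinesis, by 1.54 ± 0.18 (adjusted p = 0.0147). SPC25, a partner of NUF2 in the NDC80 complex, rose by 1.49 ± 0.18 (adjusted p = 0.0153) and CDCA3, a trigger of mitotic entry, by 1.52 ± 0.18 (adjusted p = 0.0146). Smaller rises were those of CCNB1 (0.74), CDK1 (0.80), PLK1 (0.94) and MKI67 (1.17), the proliferation antigen Ki-67. APOBEC3B, a cytidine deaminase outside the lists, was at 11.02 at 24 h against 9.25, 9.22 and 9.59 and rose by 1.67 ± 0.17 (adjusted p = 0.0122). Its controls were at 10.80 and 8.85, the same placement as that of the mitotic genes.

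**Figure D4:**
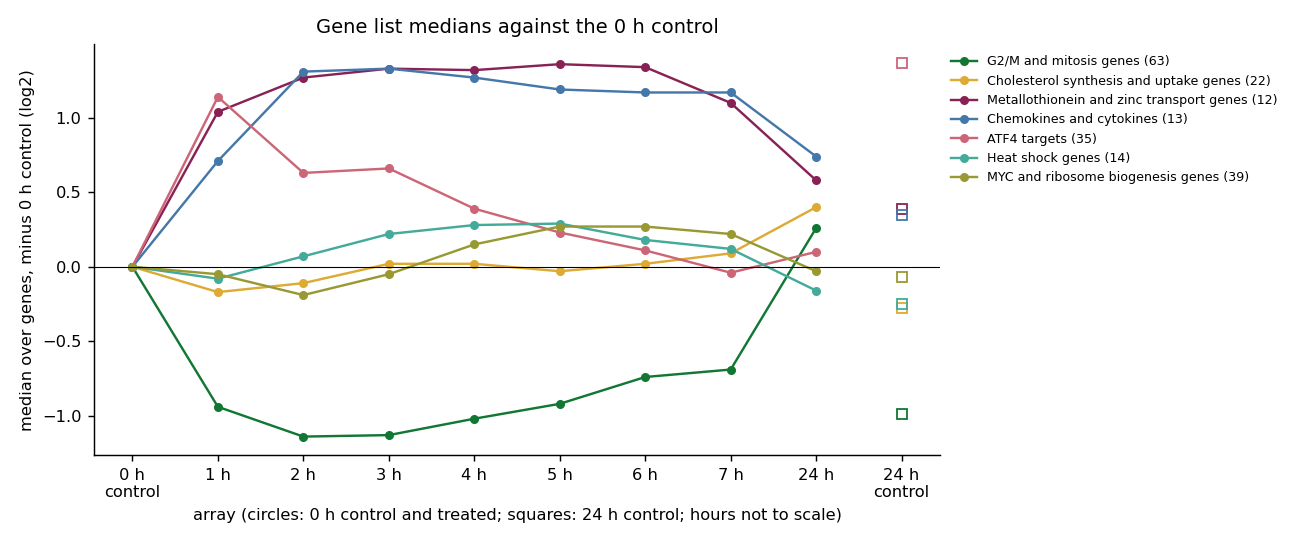
Median log2 difference from the 0 h control of the members of selected gene lists (vertical axis) at each hour of exposure and in the 24 h control (horizontal axis). The mitotic list lies at -0.92 to -0.69 at 5–7 h, 0.26 at 24 h and -0.99 in the 24 h control, and the chemokine list at 1.17 to 1.19, 0.74 and 0.35.

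Promoters of mitotic genes are known for the cell cycle genes homology region (CHR), a site of the DREAM and MuvB complexes, and for CCAAT boxes bound by NF-Y. Those of NUF2 (GRCh38.p14, chr1:163321704-163321953, plus strand), the member with the largest rise, and of DLGAP5 (chr14:55191586-55191835, minus strand), chosen after its values were seen because it holds both motifs, are shown from RefSeq, 250 bases up to the start, with matches in capitals.
NUF2: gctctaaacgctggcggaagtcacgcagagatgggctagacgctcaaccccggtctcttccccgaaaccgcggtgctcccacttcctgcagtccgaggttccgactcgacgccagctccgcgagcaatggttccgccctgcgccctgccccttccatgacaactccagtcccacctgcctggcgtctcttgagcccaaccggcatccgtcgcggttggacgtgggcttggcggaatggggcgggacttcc
DLGAP5: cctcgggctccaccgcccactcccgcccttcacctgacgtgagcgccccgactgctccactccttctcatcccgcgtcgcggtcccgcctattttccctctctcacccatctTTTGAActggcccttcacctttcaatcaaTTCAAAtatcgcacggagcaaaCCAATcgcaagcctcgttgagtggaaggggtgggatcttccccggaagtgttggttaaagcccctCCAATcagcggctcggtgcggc
The letters searched, on both strands, were TTTGAA for the CHR and CCAAT for the NF-Y box. DLGAP5 held 2 matches of each, with its CHR matches at 138 and 109 bases before the start, and NUF2 held none of either, which says only that these letters are not in this window. The CHR letters were in 26 of the 52 list members with a promoter in the table (50%) and in 13.3% of all 35116 promoters, and CCAAT was in 38 of the 52 (73.1%) and in 32% of all.

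Genes of DNA replication moved less than the mitotic genes in their median. Of 48 licensing and fork genes 8 rose (16.7%, against 5.32% of all genes) and none fell (4 were lower at an unadjusted p of 0.05), with a median of 0.16. The largest were PRIM1, the small primase subunit, at 9.50 at 24 h against 8.22, 8.41 and 8.58 (1.09 ± 0.15, adjusted p = 0.0186), GINS4, a subunit of the replicative helicase (0.91 ± 0.10, adjusted p = 0.0136), and RPA3, of the single-strand binding complex (0.82 ± 0.09, adjusted p = 0.0136). One of the 4 probe sets of GINS4 did not rise. All 48 were within 0.5 of the 0 h control at 24 h, compared with 37 (77.1%) at 5–7 h, where the shares of all genes were 94.6% and 85.4%. Fanconi and homologous recombination genes had 3 rises among 18 (16.7%), FANCI, FANCG and RAD51AP1, at 0.82 to 0.97.

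G1/S regulators moved in both directions. CCNE2, which encodes cyclin E2 and drives entry into S phase, was at 8.33 at 24 h against 9.68, 9.81 and 9.79 at 5, 6 and 7 h, with controls at 7.86 and 6.15. The earlier arrays were well above both controls, and the 24 h array was 0.47 above the 0 h control. It fell by 1.43 ± 0.09 (adjusted p = 0.00843). CDC25A, the phosphatase that activates CDK2, fell by 1.22 ± 0.10 (adjusted p = 0.0101), and CCNE1 and CCND1 fell by 0.92 and 1.04. TK1, thymidine kinase, rose by 1.09 ± 0.18 (adjusted p = 0.0254), as did RRM1, TYMS and RB1, so that 4 of 27 rose and 4 fell (14.8% each).

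Most of the histone genes above the filter on low signal were lower. Of 12 tested members 6 fell (50%) and 1 (H1-2) rose (8.33%), with a median of -0.42. Over the 25 members on the array, without the filter, the median was -0.06. H2BC5 was at 8.47 at 24 h against 9.62, 9.38 and 9.44 and fell by 1.01 ± 0.12 (adjusted p = 0.0147), and H2AC6 and H2BC12 fell by 0.87 and 0.82. At 24 h all 3 were below both controls. These transcripts are mostly without poly(A) tails and belong to near-identical copies, so the probe sets may not separate members.

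Cholesterol synthesis genes rose to levels beyond both controls. HMGCS1, the synthase that makes HMG-CoA for the mevalonate pathway, was at 9.87 at 24 h, against 8.22, 8.43 and 8.47 at 5, 6 and 7 h, with controls at 7.84 and 7.43. The 24 h array was the highest of all 10, and the difference was 1.49 ± 0.12 (adjusted p = 0.0107), with both probe sets of that sign. MSMO1, a sterol C4-methyl oxidase, was at 11.60 at 24 h against 10.04, 10.13 and 10.30, and its controls were at 10.05 and 9.29. It rose by 1.45 ± 0.12 (adjusted p = 0.0107) and was new at 24 h, 1.56 above the 0 h control. MVD, which decarboxylates mevalonate diphosphate, was at 8.15 at 24 h against 6.86, 6.91 and 6.88, with controls at 6.91 and 6.83. The 3 earlier arrays were within 0.1 of both controls, and it rose by 1.27 ± 0.08 (adjusted p = 0.00843). With the spread of all 10 arrays only 2 of the list's 13 rises passed, HMGCS1 at 0.0426 and MVD at 0.0422, and MSMO1 did not (adjusted p = 0.06). Without the 6 h array no gene of the pathway passed, while 14 were higher at an unadjusted p of 0.05.

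Most other members of the list were higher too. IDI1, the isopentenyl diphosphate isomerase, rose by 1.10 ± 0.14 (adjusted p = 0.0154), and its 4 probe sets ranged between 0.22 and 1.10. HSD17B7, which acts in zymosterol synthesis, rose by 1.27 ± 0.10 (adjusted p = 0.00946), but was only 0.39 above its 0 h control. FDPS rose by 1.24, LSS by 1.22, ACAT2 by 1.18, DHCR7 by 0.90, SC5D by 0.80, INSIG1 by 0.69, NPC1 by 0.57 and SQLE by 0.56. MYLIP, the ubiquitin ligase that degrades the LDL receptor, fell by 0.88. In all, 13 of 22 rose (59.1%) and 1 fell (4.55%), 18 lay above zero and 4 below, the median was 0.63 and 8 were 2-fold higher. Of the 7 genes new and high at 24 h, 4 belonged to this list, MSMO1, IDI1, MVD and DHCR7. The list median relative to the 0 h control was -0.03, 0.02 and 0.09 at 5, 6 and 7 h, 0.40 at 24 h and -0.28 in the 24 h control. The sterol element letters TCACNCCAC were in the promoter of 1 of 19 members (5.26%), SREBF2, and in 0.883% of all promoters. In fatty acid and lipid genes 4 of 19 rose and 1 fell, CPT1A, the carnitine transferase of fatty acid oxidation (-0.50, adjusted p = 0.0274), with LPIN1, a phosphatidate phosphatase, at 1.13 ± 0.13 (adjusted p = 0.0141) and PNPLA3, a lipid droplet protein, at 1.08 ± 0.18 (adjusted p = 0.0265). The largest difference downward was that of ANGPTL4, an inhibitor of lipoprotein lipase, which did not pass (-0.89 ± 0.21, adjusted p = 0.0553).

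The other genes new at 24 h were of mixed function. INO80C, a subunit of the INO80 chromatin remodeller, was at 10.72 at 24 h against 9.41, 9.48 and 9.40, with controls at 9.22 and 8.95, and rose by 1.28 ± 0.09 (adjusted p = 0.00843). Its other probe set rose by 0.59. NOG, a secreted antagonist of BMP, was at 10.67 at 24 h against 9.83, 9.82 and 9.87 and rose by 0.83 ± 0.08 (adjusted p = 0.0122). On the low side PLAC8 was at 8.84 at 24 h against 10.43, 10.38 and 10.05, with controls at 10.21 and 10.61, and fell by 1.45 ± 0.17 (adjusted p = 0.0147). HINT3 was at 8.86 against 10.18, 10.01 and 9.99 and fell by 1.20 ± 0.11 (adjusted p = 0.0118). IGFBP6, a binding protein of IGF-II, fell by 0.85 ± 0.09 (adjusted p = 0.0133), and PLPP3, a lipid phosphate phosphatase, by 1.12 ± 0.14 (adjusted p = 0.0153). In each of these 4 the 24 h array was the lowest of all 10. PLAC8, HINT3, IGFBP6 and PLPP3 each passed with the spread of all 10 arrays too, at 0.0374.

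ATF4 targets, the genes of the amino acid and integrated stress response, split. TRIB3, a pseudokinase that restrains ATF4, was at 10.96 at 24 h, against 9.18, 9.01 and 8.93 at 5, 6 and 7 h, with controls at 10.46 and 12.13. The 3 earlier arrays were below both controls and the 24 h array between them, and the rise was 1.92 ± 0.12 (adjusted p = 0.00843). SESN2, a stress-induced leucine sensor, rose by 1.19 ± 0.11 (adjusted p = 0.0118), and CHAC1, GDF15, ATF4 and ATF3 rose by 0.71 to 1.05. ASNS, asparagine synthetase, was at 11.19 at 24 h against 12.78, 12.64 and 12.47 and fell by 1.45 ± 0.14 (adjusted p = 0.0122), but its second probe set lay at 0.21. PHGDH and PSAT1, of serine synthesis, fell by 1.02 and 0.60, and the tRNA synthetases WARS1 and SARS1 by 0.93 and 0.74. Of 35 members 10 rose (28.6%) and 6 fell (17.1%), with a median of 0.02. The controls were 1 or more apart in 22 of the 35, against 276 of all 11865 genes. At 24 h 30 members (85.7%) were within 0.5 of the 0 h control, compared with 16 (45.7%) at 5–7 h. The shares of all genes were 94.6% and 85.4%. Relative to the 24 h control the list did not move closer, with a median of -1.04 at 5–7 h and -1.16 at 24 h. At 24 h 0 of the 35 were above both controls and 12 below both, against 3370 and 4142 of all 11865 genes.

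Of the 12 largest falls past the threshold, 8 were in genes whose controls were 1 log2 unit or more apart, CXCL6 above and the 7 described next. LAMP3, a lysosomal membrane protein, was at 4.82 at 24 h, against 8.80, 8.80 and 8.69 at 5, 6 and 7 h, with the 0 h control at 4.52 and the 24 h control at 7.76. It fell by 3.94 ± 0.09, a 15.4-fold fall (adjusted p = 0.00051), to 0.30 above the 0 h control. BEX2 was at 7.03 at 24 h against 9.54, 9.52 and 9.31, and its controls were at 6.99 and 9.68 (difference -2.43 ± 0.12, adjusted p = 0.00843). CLGN, a chaperone of the calnexin family, fell by 2.38 ± 0.17 (adjusted p = 0.00919) to 0.04 above the 0 h control. NIBAN1, a stress-induced regulator of translation, and BCAT1, a branched-chain amino acid transaminase, fell by 1.76 and 1.58. The 4 probe sets of BCAT1 ranged between -2.15 and -0.02. MAP1B, a microtubule-associated protein, fell by 1.92, with 2 of 3 probe sets of that sign. S100P, a calcium-binding protein, fell by 2.10 ± 0.10 (adjusted p = 0.00784) to 0.61 below the 0 h control. In these 7 the 24 h control was at least 1.77 above the 0 h control, and the 24 h array was nearer the 0 h control. LAMP3, CLGN, MAP1B, BCAT1 and S100P were below log2 5.79, the filter on mean signal, in both the 24 h array and the 0 h control. They passed that filter through the other arrays. The sizes of their falls and their distances from the 0 h control therefore rest on low signal.

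The persisted low genes included the BMP targets ID2 and ID3. ID2, a BMP target that blocks DNA binding by helix-loop-helix factors, was at 6.38 at 24 h against 6.41, 6.06 and 6.28, with controls at 9.11 and 7.91. The 24 h array was inside the range of the 3 arrays (difference 0.13 ± 0.15, adjusted p = 0.602) and 1.53 below the nearer control. ID3 was at 8.46 at 24 h against 8.93, 8.56 and 8.48, with controls at 11.50 and 9.90 (difference -0.20 ± 0.19, adjusted p = 0.532). TXNIP, an arrestin-family protein that limits glucose uptake, was at 10.09 at 24 h against 9.40, 9.41 and 9.65, with controls at 11.38 and 12.18. It rose by 0.60 ± 0.13 (adjusted p = 0.0436) yet stayed 1.29 below the nearer control. PSG9, a pregnancy-specific glycoprotein whose relatives are close copies, was 1.28 below the nearer control and did not pass (-0.27 ± 0.09, adjusted p = 0.104). On the high side PMEPA1, a feedback inhibitor of TGF-beta signalling, was at 9.38 at 24 h against 10.12, 10.05 and 9.99, with controls at 7.88 and 7.67, and fell by 0.67 ± 0.09 (adjusted p = 0.0186), while CHI3L2, a chitinase-like secreted protein, was at 9.22 against 8.92, 8.88 and 9.17 and did not pass (0.23 ± 0.14, adjusted p = 0.326). Of 22 TGF-beta, YAP and ID genes 2 rose (9.09%) and 5 fell (22.7%). CCN2, a YAP and TGF-beta target, lay 1.12 ± 0.33 higher without passing (adjusted p = 0.0878).

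Some FOXO-type genes, which rise when growth factors are withdrawn, recovered, while most of the list lay below both controls at 24 h. CCNG2, an unconventional cyclin of quiescence, was at 9.44 at 24 h against 7.79, 7.67 and 7.73, with controls at 9.26 and 8.83. The 3 earlier arrays had an SD of 0.06 and lay below both controls, and the 24 h array was above both. It rose by 1.71 ± 0.09 (adjusted p = 0.00843), though its 5 probe sets ranged down to 0.03. ERBB3, a receptor of neuregulins, rose by 1.06 ± 0.10 (adjusted p = 0.0119), with 3 of 5 probe sets of that sign, and YPEL3 rose by 0.87 ± 0.17 (adjusted p = 0.0339). Of 29 members 6 rose (20.7%) and 2 fell (6.9%), with a median of 0.00. At 24 h 19 of the 29 were below both controls and 4 above both, against 4142 and 3370 of all 11865 genes. At 5–7 h all 3 arrays were below both in 15 of the 29, against 2633 of all genes. Of this list TXNIP persisted low and DDIT4 was partly resolved. Partly resolved low genes included PTPRH, a receptor tyrosine phosphatase, at 7.41 against 6.69, 6.66 and 6.70 (0.73 ± 0.08, adjusted p = 0.0136), and PDE4D, a cAMP phosphodiesterase (0.89 ± 0.20, adjusted p = 0.0498).

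Early-response genes showed no common direction. In both the immediate-early and the ERK lists 14.3% were called, near the 12.3% of all genes. Of 28 immediate-early genes 2 rose, ATF3 and KLF6, and 2 fell, IER5 and ZFP36, with a median of 0.02, and HBEGF, an EGFR ligand, did not pass (0.60 ± 0.19, adjusted p = 0.10, with 2 of 4 probe sets of that sign). Relative to the 0 h control the list median was 0.53, 0.37 and 0.35 at 5, 6 and 7 h, 0.51 at 24 h and 0.39 in the 24 h control. In the ERK list DUSP6, a phosphatase that inactivates ERK, was at 8.19 at 24 h against 7.35, 6.76 and 7.22 and rose by 1.08 ± 0.23 (adjusted p = 0.0451). ETV1, an ETS factor downstream of ERK, was at 8.88 against 7.95, 7.14 and 6.83, and did not pass (1.57 ± 0.42, adjusted p = 0.07). DUSP2 did not pass either (-0.68 ± 0.21, adjusted p = 0.0965).

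MYC and ribosome biogenesis genes were lower by small amounts. Of 39 members 11 fell (28.2%) and none rose (2 were higher at an unadjusted p of 0.05), and the median was -0.30. RRS1, a factor of 60S subunit assembly, was at 9.61 at 24 h against 10.60, 10.47 and 10.55 and fell by 0.93 ± 0.09 (adjusted p = 0.0122). NOP2, an rRNA methyltransferase, fell by 0.74 ± 0.11 (adjusted p = 0.0215), as did NOP16 by the same amount. Only 3 of the 4 probe sets of NOP16 had this sign. In 26 of the 39 all 3 earlier arrays were above both controls, against 2896 of all 11865 genes. At 24 h 7 of the 39 were, against 3370 of all genes.

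Clock genes included 3 rises (20%) and 1 fall (6.67%) in 15, the fall being that of the repressor CRY2 (-0.37, adjusted p = 0.0457). DBP, an output factor of the clock, was at 8.36 at 24 h against 7.54, 7.14 and 7.31, with controls at 9.26 and 9.04, and rose by 1.03 ± 0.16 (adjusted p = 0.024), although its other probe set lay at -0.04. PER3 rose by 0.79 ± 0.11 (adjusted p = 0.0195) and NR1D2 by 0.71 ± 0.10 (adjusted p = 0.0182), and at 24 h PER3 was above both controls and NR1D2 at the 24 h control. Only 3 of the 4 probe sets of PER3 rose, and the lowest differed by -0.21. Among hypoxia and glycolysis genes ALDOC, an aldolase, was at 7.97 at 24 h against 6.78, 6.89 and 6.86 and rose by 1.13 ± 0.09 (adjusted p = 0.0101), and SLC2A3, the GLUT3 transporter, rose by 0.96 ± 0.14 (adjusted p = 0.0189). HK2, SLC2A1, HILPDA, P4HA2 and BNIP3L fell by 0.44 to 0.75, so that 2 of 31 rose (6.45%) and 5 fell (16.1%).

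The remaining lists moved in both directions or hardly at all, against 12.3% called over all genes. Of 22 p53 targets 3 rose and 3 fell (27.3% called), of 17 BCL2 family genes 1 rose and 3 fell (23.5%), and of 32 autophagy and lysosome genes 1 rose and 4 fell (15.6%). CTSL, a lysosomal protease, fell by 0.86 ± 0.11 (adjusted p = 0.0157) and SQSTM1, the autophagy receptor p62, by 0.83 ± 0.11 (adjusted p = 0.017). BCL2 itself was at 5.73 at 24 h against 6.43, 6.34 and 6.49 and fell by 0.69 ± 0.09 (adjusted p = 0.0186), with only 2 of 4 probe sets of that sign. Of 29 proteasome genes 1 rose, PSMD2 (3.45%), and of 25 matrix and adhesion genes 2 fell (8%), the integrin chains ITGB4 (-1.10 ± 0.09, adjusted p = 0.0107) and ITGA3 (-0.93 ± 0.14, adjusted p = 0.0208).

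**Figure D5:**
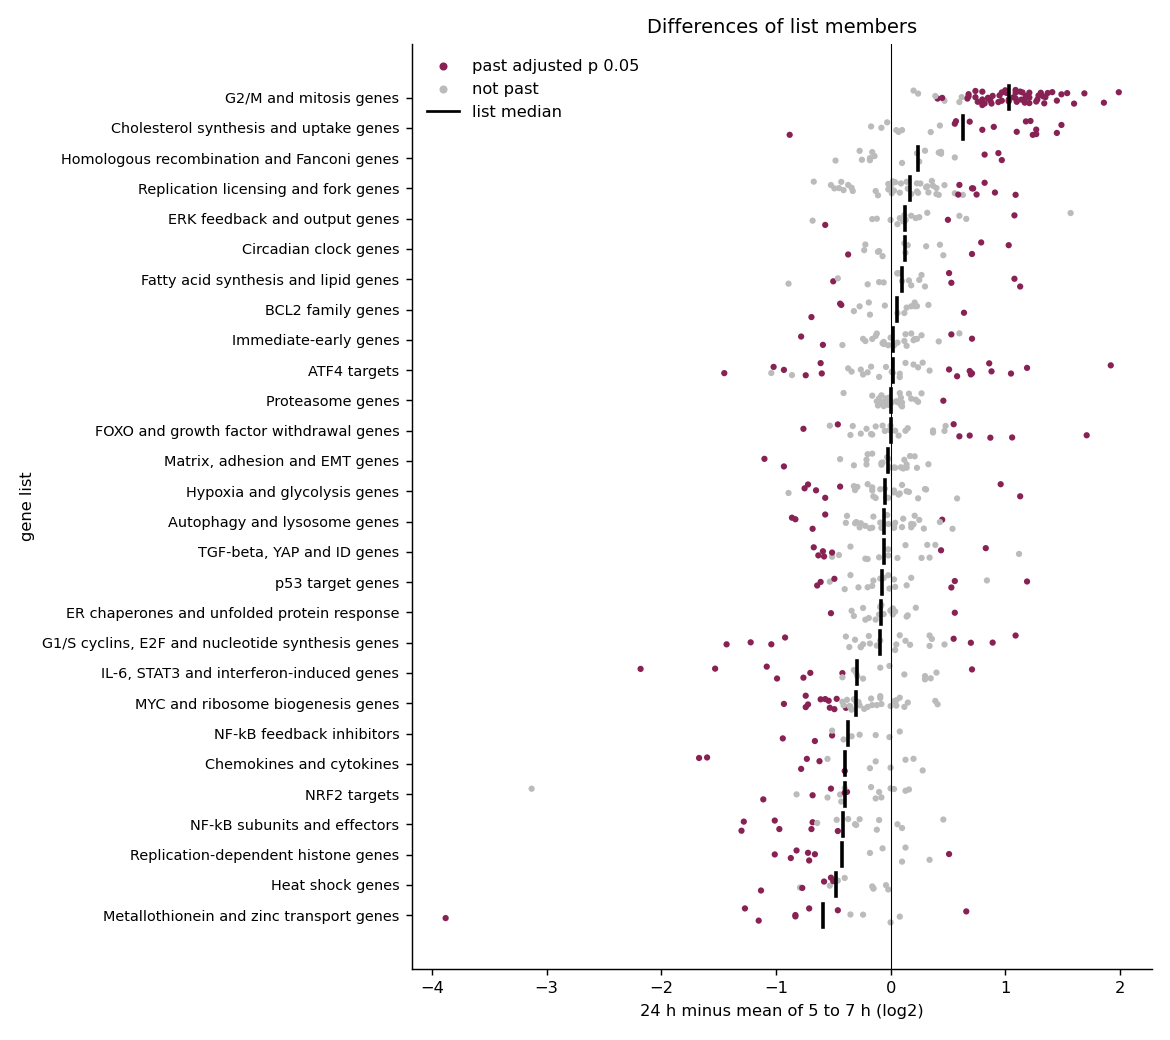
Log2 difference, 24 h minus the mean of 5–7 h (horizontal axis), of every tested member of the 28 gene lists (points) with the list median (bar), lists running down the page. The mitotic list (median 1.03) and the cholesterol list (0.63) lie furthest to the right, and the metallothionein list (-0.58) furthest to the left.

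Some genes that mark other cell types moved as well. CDH5, the endothelial VE-cadherin, was at 7.71 at 24 h against 5.96, 5.59 and 6.04, with controls at 7.36 and 7.85, and rose by 1.85 ± 0.19 (adjusted p = 0.0122). CD14, a monocyte receptor, was at 5.58 at 24 h against 7.12, 6.60 and 6.70, with controls at 7.72 and 7.63, and fell by 1.23 ± 0.21 (adjusted p = 0.0269). LYZ, the leukocyte enzyme lysozyme, was at 6.70 at 24 h against 6.23, 6.16 and 6.28 and rose by 0.47 (adjusted p = 0.0353), while PECAM1, the other endothelial marker tested, differed by 0.02 (adjusted p = 0.954). The markers of each type thus did not move together. The defining leukocyte and endothelial markers PTPRC, CD3E, MS4A1, CSF1R, VWF and TYROBP, 6 of the 10 on the array, were below the filter on low signal. The summed signal of that list was 9.20 on the log2 scale at 24 h, 8.86 to 8.90 at 5–7 h and 9.52 and 9.52 in the 0 h and 24 h controls, and its part in these results was not tested. EMCN, another endothelial gene, was partly resolved and did not pass (0.75 ± 0.31, adjusted p = 0.174). ACTA2, a smooth muscle actin on the stellate list, fell by 0.59 ± 0.11 (adjusted p = 0.03), with 1 of 3 probe sets of that sign. PRND, a prion-like gene with no list, was at 8.80 at 24 h against 7.25, 7.05 and 7.11 and above both controls at 7.37 and 8.18 (1.66 ± 0.11, adjusted p = 0.00843).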

How the data were processed

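The deposited series value table holds log2 signals of 54675 probe sets on 10 arrays. The authors used RMA for these log2 values (per the submitters' processing notes, with the version not given in the sources used here). The authors' filtered table of 7622 probe sets (13.9%) holds the same values. Of all probe sets, 41097 had 1 gene symbol, 1801 several and 11777 none in the platform annotation. Among the 19775 genes each was represented by its probe set of highest 10-array mean (10523 genes had several), and genes with a mean under the 40th percentile (log2 5.79) were left out, which left 11865. A gene low in some arrays could pass this filter through the others. MAP3K8, IL6R, HSPA6 and BCL2 were below log2 5.79 in the 24 h array and in both controls.

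limma 3.58.1 (R 4.3.3; lmFit and eBayes, 2 residual degrees of freedom) tested the 24 h array against the mean of 5, 6 and 7 h with Benjamini-Hochberg adjustment and a two-sided threshold of 0.05. The script was tested on simulated data. Tables were made with pandas 2.3.3 and numpy 2.4.6 in Python 3.11.15, and figures with matplotlib 3.10.9. Array signal has no read depth, and the number of arrays limits the precision. Named genes were the 12 largest rises and falls past the threshold, the 3 largest differences of each list, and the 4 genes furthest beyond the nearer control in each class, and others are named with their values only from a list or a class. The members, the lists and the rules were chosen with earlier results of these data known. Alternatives changed the filter, probe-set choice, scaling, table, prior, arrays sharing the spread, window and class margins.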

Additional observations from a re-analysis of the deposited data

Results flagged for a closer look

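In 17 named genes the 24 h array lay beyond both controls on 1 side while all 3 arrays of 5–7 h lay beyond them on the other side, a difference that was not tested beyond the comparison itself. Above both controls at 24 h and below them at 5–7 h were NUF2 (0.12 above the nearer control), CDC25C (0.30), CCNG2 (0.19), PRND (0.62), PER3 (0.49), NR1D2 (0.01), ALDOC (0.44) and VIM (0.01). Below both at 24 h and above them at 5–7 h were AKR1C1 (-0.79 from the nearer control), H2BC5 (-0.42), SOCS3 (-0.30), H2BC12 (-0.23), HMOX1 (-0.14), ANGPTL4 (-0.12), IRF1 (-0.08), BNIP3L (-0.06) and HSPA6 (-0.01). The distances for NR1D2, VIM, HSPA6, BNIP3L and IRF1 were smaller than the median SD of the 3 arrays over all genes, 0.0838, so that these 5 are at the nearer control rather than past it.

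Probe sets without a gene symbol were outside the comparisons. Leaving out 56 control probe sets of the array design, there were 11721 of them, of which 2 were 2-fold or more above both controls at 24 h, and 1 of these was also 2-fold above the mean of 5–7 h.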

How the results depend on the processing

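The 1455 calls depended mainly on which arrays set the spread. Leaving out each array of 5–7 h in turn gave 2 to 2290, the count being 2 when the 6 h array was dropped, 2290 when the 5 h array was and 1018 when the 7 h array was. It came to 654 with the spread of the 8 treated arrays, 43 with that of all 10, 3349 with the spread around a line in hour, and 2374 with an intensity trend and robust prior. It was 436 with no filter and 244 in the authors' filtered table, which tests fewer genes. A filter at the 60th percentile gave 1894, averaging probe sets per gene 1276, testing all probe sets singly 1075, cyclic loess 1621 and a 4–7 h window 1093. Size counts were 859 at 1.5-fold and 21 at 3-fold, and 173 to 204 leaving out each array.

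Persisted genes, 17, became 11 with the 60th percentile filter or the mean of probe sets, 111 with margins of 0.5 and 0.25, 4 with 1.5 and 0.5, 52 when only the 0 h control was used and 137 when only the 24 h control was. Resolved genes, 58, became 37 with the 60th percentile filter, 474 and 9 under those margins and 130 against the 0 h control alone. New genes, 11, became 69 and 1 under those margins, 93 against the 24 h control alone and 18 with responders of 3 and 4 h. Leaving out each array gave 16 to 17 persisted, 56 to 62 resolved and 11 to 13 new. The median of the matrix and adhesion list, -0.02, turned to 0.04 without the filter and to 0.01 under cyclic loess. That of the histone list, -0.42, shrank to -0.06 without the filter. The cause of these moves was not tested, apart from the number of genes or arrays each setting itself changes. Of the 124 named genes, 100 passed, and 98 of these calls were lost without the 6 h array, 88 with the spread of all 10 arrays, 30 with that of the 8 treated arrays, 28 in the filtered table and 25 without the filter. No paired analysis was possible because the 24 h group holds 1 array and the labels number no replicates.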
